A study of Mus musculus with 14 samples.

Results

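*Txnip* and 3 genes tied to it, *Arrdc4*, *Txn1* and *Mlxip*, were followed through RNA-seq libraries of CD11b+ microglia/macrophages taken from mouse brains after traumatic brain injury (TBI). They are 4 of the 33939 genes in the deposited table. They were chosen by symbol with results of these libraries in view, and which values led to the choice is not recorded, so every contrast is treated as used and their differences are given as a description without a p-value. *Txnip* was the member with the largest differences. Its level was lower in injured than in uninjured hemispheres in both genotypes, and in each hemisphere it was lower in every *Nhe1* cKO library than in every control library.

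The study asked what loss of the sodium/proton exchanger NHE1 in microglia does to the brain after TBI. Control (Ctrl) mice were Cx3cr1-CreER+/- and knockout (cKO) mice were Cx3cr1-CreER+/-;Nhe1flox/flox, so both genotypes carried the inducible Cre, which is driven from the *Cx3cr1* locus of microglia and related macrophages, and both received tamoxifen. All were C57BL/6 males of 8 to 12 weeks with a controlled cortical impact, and cells were sorted with magnetic CD11b beads at 3 days from the ipsilateral injured (IL) and the contralateral (CL) hemisphere. Ctrl mice gave 4 libraries of each hemisphere and cKO mice 3 of each. The 14 libraries came from 8 numbered mice, of which 6 gave both hemispheres. Mouse 784 gave only its IL and mouse 788 only its CL hemisphere. The CL hemisphere belongs to an injured brain and is not a naïve control, and a CD11b sort also keeps monocytes, neutrophils and border macrophages.

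Thioredoxin, the product of *Txn1*, is a small protein that reduces disulfides in other proteins and is itself restored by thioredoxin reductase at the expense of NADPH. Txnip, an alpha-arrestin, binds reduced thioredoxin and limits it, and it also promotes removal of glucose transporters from the cell surface. MondoA, the product of *Mlxip*, is a transcription factor that senses glucose phosphates, pairs with Mlx and drives *Txnip* and its paralog *Arrdc4* through carbohydrate response elements, each a pair of E-box-like sites. In macrophages, Txnip is known as a link between oxidative stress and the NLRP3 inflammasome.

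Sequence before the start of each gene was taken from the RefSeq promoter table of GRCm38.p6, in which all 4 members were found. The promoters of *Txnip* and *Arrdc4* are shown because both genes are textbook targets of MondoA while their levels followed different patterns here. Capitals mark a carbohydrate response element-like repeat (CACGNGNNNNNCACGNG) or an E-box (CACGTG), searched on both strands.
Txnip promoter, chr3:96557707-96557956, plus strand: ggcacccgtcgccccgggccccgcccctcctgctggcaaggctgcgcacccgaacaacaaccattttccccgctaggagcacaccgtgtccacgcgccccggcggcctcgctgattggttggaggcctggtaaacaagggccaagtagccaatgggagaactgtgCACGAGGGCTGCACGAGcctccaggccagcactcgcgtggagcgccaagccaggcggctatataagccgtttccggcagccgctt
Arrdc4 promoter, chr7:68749242-68749488, minus strand: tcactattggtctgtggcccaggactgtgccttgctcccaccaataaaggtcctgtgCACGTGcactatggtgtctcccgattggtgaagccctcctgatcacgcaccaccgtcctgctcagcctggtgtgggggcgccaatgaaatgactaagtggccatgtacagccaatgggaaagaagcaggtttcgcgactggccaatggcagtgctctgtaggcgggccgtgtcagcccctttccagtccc
The *Txnip* window held the repeat, 69 to 85 bases before the gene start, which occurred in 15 of 32851 promoter windows of 250 bases (0.0457%). The *Arrdc4* window held no such repeat but an E-box at 185 to 190 bases before the start, a motif present in 6.02% of the windows. CCAAT, the box bound by NF-Y, occurred 2 times in the *Txnip* window and 6 times in that of *Arrdc4*, and 33.9% of all windows held at least 1. The *Txn1* window held none of these motifs, and the *Mlxip* window held 2 CCAAT boxes only. The E-box can lie inside the repeat, and a match describes letters in the window, not binding.

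Values are reads per 1e+06 reads assigned to genes (CPM) as deposited, with means ± SD. Reads per library, recovered from the step between low values, ranged from 12.2 to 41.6 M (1 M being 1e+06) with a median of 34.2 M. Ctrl mouse 3546 had the shallowest library, that of its IL hemisphere. The microglial genes were abundant throughout. *Itgam*, which encodes CD11b, averaged between 1086 and 1280 CPM in the 4 groups, and none of the 7 monocyte, 7 neutrophil, 5 border macrophage or other lineage markers was at 0 in all libraries of a group. Differences were fitted with limma on log2(CPM + 1) after scaling, over all genes that passed a filter on low values. They are given as log2 fold changes (log2FC) with the standard error (SE). A gene was called when its Benjamini-Hochberg adjusted p was at or under 0.05 and its fold change at least 1.2. All 4 members passed the filter in every comparison.

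*Txnip* (ENSMUSG00000038393) is a protein-coding gene at chr3:96557957-96561883 on the plus strand of GRCm38. In the Ctrl CL libraries of mice 3541, 3545, 3546 and 3551 it stood at 1083, 1318, 1436 and 1481 CPM. In the cKO CL libraries of mice 788, 791 and 3592 it stood at 898.6, 758.4 and 948.9 CPM. In the Ctrl IL libraries, in the same order of mice, it stood at 437.2, 455.5, 616.1 and 406.8 CPM. In the cKO IL libraries of mice 784, 791 and 3592 it stood at 261.4, 237.0 and 239.4 CPM. The groups thus formed 4 steps, Ctrl CL (1330 ± 178 CPM, n = 4), cKO CL (869 ± 98.7, n = 3), Ctrl IL (479 ± 93.7, n = 4) and cKO IL (246 ± 13.4, n = 3). Neighbouring steps shared no value, so even the highest injured library lay below the lowest uninjured one of either genotype. The share of all genes that separated the same groups without overlap was not counted. *Zbtb1*, *Sult1a1* and *Pld1*, taken up below for their likeness to *Txnip*, were also lower in cKO without overlap in both hemispheres. None of them was called between genotypes.

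**Figure D1:**
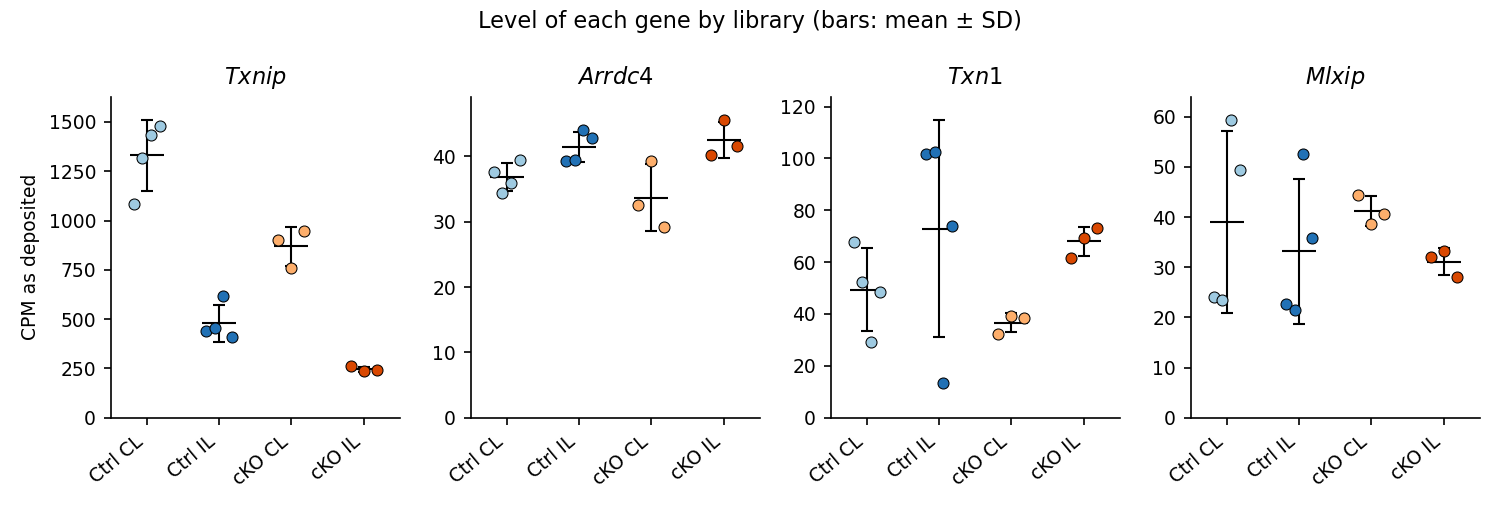
CPM as deposited (vertical axes from 0, separate scale per gene) of *Txnip*, *Arrdc4*, *Txn1* and *Mlxip* in each library of the 4 groups; points are libraries, bars the mean ± SD. *Txnip* falls into 4 separate steps from 1330 to 246 CPM on average, *Arrdc4* stays between 29.2 and 45.5 CPM, and a single Ctrl IL library holds the lowest *Txn1* value, 13.3 CPM.

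Between genotypes in the IL hemispheres, *Txnip* was 1.902-fold lower in cKO (log2FC -0.93, SE 0.14). It was the only member called there, 1 of 4, where 0.658% of 16873 genes were called. In the CL hemispheres it was 1.53-fold lower in cKO (log2FC -0.62, SE 0.18) and was not called, and 0 of 4 members were called beside 0.875% of 16570 genes. The IL call was lost in 5 of the 7 fits that left out a single library and in the fit without a filter on low values, and the CL difference was called only in the single fit of all 14 libraries. In those 7 fits the log2FC stayed between -1.03 and -0.86. Over all genes, leaving out the Ctrl IL library of mouse 3546 raised the count from 111 to 284. Of the marker lists for other cell types and for dissociation, described next, none had a gene called between genotypes except 1 oligodendrocyte marker, lower in cKO CL, and the heat shock genes *Hspa1a* and *Hspa1b* were lower in cKO without overlap or a call. The difference between the hemispheres in the genotype effect, tested as an interaction over all 14 libraries, was -0.31 (SE 0.20) for *Txnip*. No member met the call rule for the interaction, and neither did any of the 18476 genes (0%) by limma, of which 481 had an unadjusted p under 0.05. With the mouse as a random effect, 3 genes were called, none of them a member.

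Between hemispheres, *Txnip* was 2.65-fold lower in IL than in CL of Ctrl mice (log2FC -1.41, SE 0.16) and 3.31-fold lower in cKO mice (log2FC -1.73, SE 0.13). Both differences met the call rule in every setting run, including each fit without a library and each fit with the mouse as a block. Within single mice the IL level was 40.4%, 34.6%, 42.9% and 27.5% of the CL level in Ctrl mice 3541, 3545, 3546 and 3551. It was 31.3% and 25.2% in cKO mice 791 and 3592. All 6 mice with both hemispheres therefore showed the same direction, and the ranges of the genotypes overlapped. Of all genes tested in both genotypes, 23.4% were lower in IL in all 6 mice. Among the members, 1 of 4 was called between hemispheres in Ctrl, where 6.58% of 16376 genes were called, and 2 of 4 in cKO, where 22.4% of 16758 were. With the mouse as a fixed block, the counts over all genes went from 1078 to 3358 in Ctrl (20.5% of those tested) and from 3746 to 2310 in cKO (13.8%). The genotype with more calls was thus cKO without the block and Ctrl with it. The log2FC and SE above are from fits without the block.

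**Figure D2:**
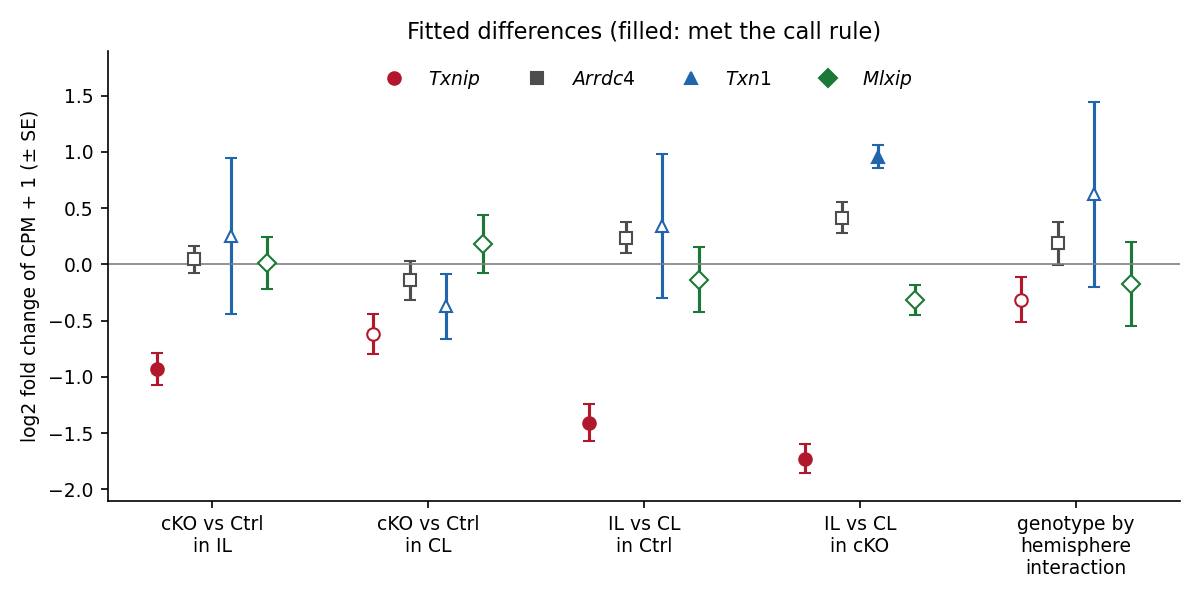
Fitted log2 fold changes of CPM + 1 (vertical axis, points; bars ± SE) of the 4 genes in the 4 comparisons and the interaction, filled where the call rule was met. *Txnip* lies below 0 in every comparison, from -1.73 to -0.31, and *Txn1* in cKO (0.96) is the only other filled point.

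The cells of the hemispheres also differed in other ways that were measured in the same libraries. The summed level of 10 microglial markers was 34670 to 39400 CPM in the CL libraries and 19720 to 24440 CPM in the IL libraries. Of these 10, 6 fell in IL in each genotype and none was called between genotypes. The summed level of 7 neutrophil markers ran from 457.6 to 6046 CPM in CL and from 138.1 to 806.0 CPM in IL of Ctrl mice, and from 454.5 to 1294 CPM in CL and from 185.4 to 280.1 CPM in IL of cKO mice. In cKO 5 of 7 fell in IL, beside 22.4% of all genes called there, with a list median log2FC of -1.32. In Ctrl, where the libraries overlapped, none was called, but all 7 had a negative log2FC, from -3.27 to -1.32 with a median of -2.77. None of them was called by the interaction fit. The 7 infiltrating monocyte markers summed to 237.3 to 762.9 CPM in Ctrl CL and 139.5 to 354.8 in cKO CL. In IL they summed to 392.4 to 609.9 CPM in Ctrl and 323.3 to 502.4 in cKO. Of these markers, 2 rose in IL of Ctrl and 3 in IL of cKO. The 5 border macrophage markers summed to 198.9 to 425.9 CPM in Ctrl CL and 111.7 to 292.3 in cKO CL. In IL they summed to 207.9 to 316.1 CPM in Ctrl and 92.6 to 260.9 in cKO. For cKO against Ctrl in CL, the median log2FC was -1.40 for the neutrophil, -0.59 for the monocyte and -1.02 for the border macrophage list. In IL these medians were -0.21, 0.58 and -0.15, and no gene of these lists was called between genotypes. Over all libraries the T and NK cell list summed to 1.15 to 7.31 CPM, the neuron list to 0.768 to 20.02, the astrocyte list to 120.5 to 221.2 and the endothelial list to 58.4 to 210.8 CPM. The astrocyte list ran from 206.0 to 221.2 CPM in Ctrl CL and from 120.5 to 168.4 in Ctrl IL, and its sums overlapped between cKO hemispheres. Of its 5 markers, *Gfap*, the filament protein of astrocytes, rose in IL of both genotypes (log2FC 1.85 in Ctrl and 1.95 in cKO), and *Slc1a3*, a glutamate transporter, fell in both (-1.16 and -0.80). Of the T and NK cell, B cell, border macrophage, oligodendrocyte, neuron and endothelial lists, *Nkg7* (T and NK cell) and *Cbr2* (border macrophage) fell in IL of Ctrl, the myelin genes *Mbp* and *Mobp* rose in IL of cKO, and no other gene was called between hemispheres. The oligodendrocyte and B cell lists stood apart by genotype in CL. There the oligodendrocyte list summed to 98.2 to 153.5 CPM in Ctrl and 51.5 to 72.4 in cKO, against 74.3 to 119 and 67.5 to 102.5 CPM in IL. The B cell list summed to 28.9 to 43.4 CPM in Ctrl CL and 24.7 to 25.7 in cKO CL, against 19.9 to 28.1 and 16.1 to 21.1 CPM in IL. The 7 genes of the dissociation response, such as *Fos* and *Hspa1a*, summed to 20950 to 31940 CPM in CL and 13730 to 16360 CPM in IL, with 4 of 7 falling in IL of cKO and none called in Ctrl. Single genes of this list, picked after their values were seen, also stood apart by genotype. *Hspa1a*, a stress-induced chaperone, averaged 1897 ± 830 CPM in Ctrl CL and 529 ± 193 in cKO CL, and 620 ± 238 in Ctrl IL and 224 ± 34.9 in cKO IL. Its near-identical copy *Hspa1b*, with which it may share reads, averaged 1842 ± 926 and 379 ± 186 CPM in CL, and 513 ± 210 and 109 ± 36.4 CPM in IL. Neither gene had overlapping Ctrl and cKO libraries in CL or IL, and the log2FC was -1.82 and -2.32 in CL (limma adjusted p = 0.0827 and 0.0532) and -1.39 and -2.18 in IL (limma adjusted p = 0.185 and 0.0704). *Ier2* and *Egr1*, immediate early genes, were higher in every cKO than in every Ctrl library of the same hemisphere, with a log2FC of 0.58 and 0.51 in IL, not called. The part of these marker lists and genes in the *Txnip* differences between hemispheres and between genotypes was not tested. In bulk libraries, fewer cells of a type and less RNA per cell cannot be told apart.

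*Arrdc4* (ENSMUSG00000042659), the paralog that shares the alpha-arrestin fold and the role in glucose transporter removal, lies at chr7:68736995-68749241 on the minus strand. Its Ctrl CL libraries, in the order of mice above, held 37.7, 34.4, 35.9 and 39.5 CPM, and its Ctrl IL libraries 39.3, 39.5, 44.0 and 42.8 CPM. The cKO CL libraries held 32.6, 39.3 and 29.2 CPM and the cKO IL libraries 40.2, 45.5 and 41.6 CPM. Ctrl and cKO libraries overlapped in both hemispheres, with a log2FC of 0.05 (SE 0.12) in IL and -0.14 (SE 0.17) in CL. The IL level was higher than the CL level in 6 of 6 mice, from 104.4% of CL in mouse 3541 to 142.7% in mouse 3592. The log2FC of IL against CL was 0.24 (SE 0.14) in Ctrl, with overlap, and 0.42 (SE 0.14) in cKO, without overlap, and neither was called. The cKO difference was called with the mouse as a random effect (0.45) and without the CL library of mouse 791 (0.53). Of all genes tested in both genotypes, 11.5% were higher in IL in all 6 mice. *Txnip* was lower in IL in the same 6 mice. Per kilobase of exon, *Txnip* exceeded *Arrdc4* by 46.8 ± 6.53 times in Ctrl CL (n = 4), 34.2 ± 8.65 times in cKO CL (n = 3), 14.9 ± 2.41 times in Ctrl IL (n = 4) and 7.53 ± 0.837 times in cKO IL (n = 3).

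**Figure D3:**
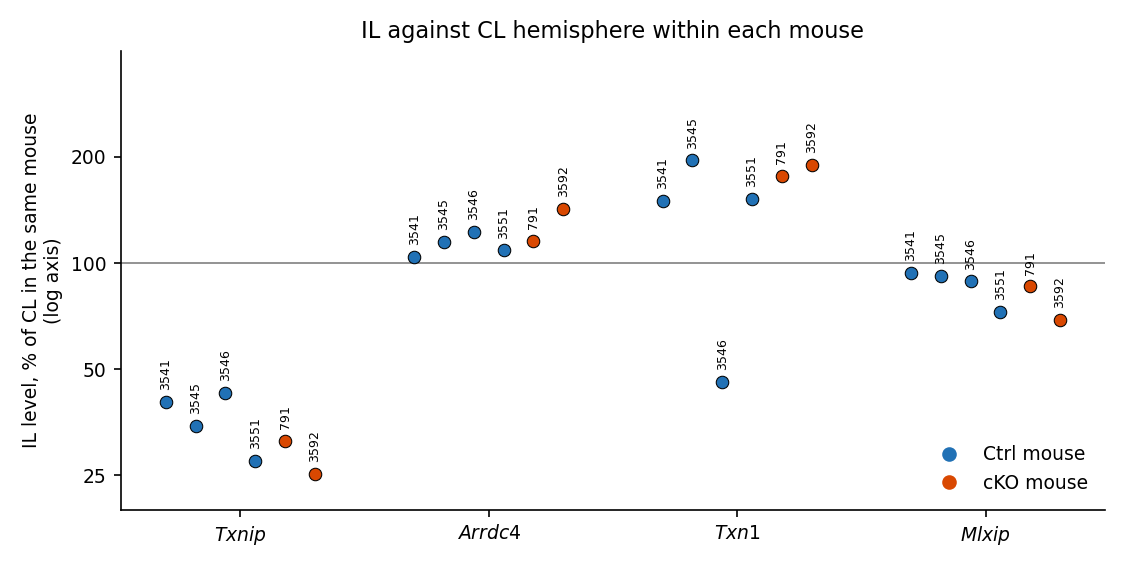
Level in the IL hemisphere as a percentage of the CL level of the same mouse (vertical log axis) for the 4 genes; each point is a mouse, labelled with its number and coloured by genotype, and the line marks 100%. *Txnip* lies between 25.2% and 42.9% in all 6 mice, *Arrdc4* above and *Mlxip* below 100% in all 6, and *Txn1* above 100% in every mouse but 3546 (46.0%).

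*Txn1* (ENSMUSG00000028367), which encodes cytosolic thioredoxin, the protein bound by Txnip, lies at chr4:57943373-57956411 on the minus strand. The Ctrl CL libraries held 67.8, 52.3, 29.0 and 48.5 CPM and the cKO CL libraries 32.4, 39.1 and 38.5 CPM. The Ctrl IL libraries held 101.9, 102.3, 13.3 and 73.9 CPM and the cKO IL libraries 61.8, 69.2 and 73.0 CPM. The IL library of Ctrl mouse 3546 thus held the lowest of the 14 values, while the other 3 Ctrl IL libraries lay above every CL library. In cKO the log2FC of IL against CL was 0.96 (SE 0.10), a 1.94-fold higher level without overlap. This met the call rule in the fits of the cKO libraries alone and did not in the 2 fits of all 14 libraries together. In Ctrl it was 0.34 (SE 0.64), and 1.07 (SE 0.32) without the IL library of mouse 3546. The IL level was higher in 5 of 6 mice, with mouse 3546 the exception at 46.0% of its CL level.

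Between genotypes, *Txn1* had a log2FC of 0.25 (SE 0.69) in IL, which became -0.48 (SE 0.18) without the IL library of mouse 3546, and -0.37 (SE 0.29) in CL. Libraries of the genotypes overlapped in both hemispheres. Per kilobase of exon, *Txnip* exceeded *Txn1* by 10.2 ± 4.76 times in Ctrl CL (n = 4) and 8.05 ± 1.42 times in cKO CL (n = 3). In cKO IL the transcripts were closer, at 1.23 ± 0.173 times (n = 3). In Ctrl IL the ratio ran from 1.44 to 15.6, the highest value belonging to mouse 3546. A processed copy, *Txn-ps1*, matches *Txn1* over 309 bases at 95.8% identity and reached at most 0.468 CPM.

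*Mlxip* (ENSMUSG00000038342), which encodes MondoA, lies at chr5:123394798-123457932 on the plus strand. The Ctrl CL libraries held 24.1, 23.5, 59.3 and 49.4 CPM and the Ctrl IL libraries 22.6, 21.6, 52.6 and 35.9 CPM. The cKO CL libraries held 44.4, 38.6 and 40.6 CPM and the cKO IL libraries 32.0, 33.2 and 28.1 CPM. The spread among Ctrl mice followed the mouse in both hemispheres, with mice 3541 and 3545 low and mouse 3546 high. The IL level was below the CL level in 6 of 6 mice, at 69.2% to 93.8% of it, as it was for 23.4% of all genes. In cKO the IL libraries lay below the CL libraries without overlap (log2FC -0.31, SE 0.13), and in Ctrl the groups overlapped (-0.14, SE 0.29). Neither met the call rule, though the cKO difference did on the deposited CPM (-0.40), and the genotypes overlapped in IL (0.01, SE 0.23) and CL (0.18, SE 0.26). Exons of *Mlxip* share stretches of 90% identity or more with other transcripts, so some of its reads may be uncertain.

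Per kilobase of exon the members kept the order *Txnip*, *Txn1*, *Arrdc4*, *Mlxip* in every group. The levels were 426, 47.0, 9.12 and 4.69 CPM per kilobase in Ctrl CL and 153, 69.3, 10.3 and 3.98 in Ctrl IL. They were 278, 34.9, 8.34 and 4.95 in cKO CL and 78.8, 64.7, 10.5 and 3.74 in cKO IL. *Gm15441*, which lies antisense to *Txnip* and shares 606 exon bases with it, and *Gm15747*, antisense to *Mlxip* over 267 bases, reached at most 0.691 and 0.1799 CPM.

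The genes whose pattern over the 14 libraries was most like that of *Txnip* were *Zbtb1* (Pearson r 0.97), *Sult1a1* (0.97), *Pld1* (0.97), *Il16* (0.96) and *Snrnp48* (0.96), of 9753 genes with a mean log2 value of at least 3. The points share the 4 groups, and the group differences of *Txnip* enter every r. After the group means were taken out, r with *Txnip* was 0.73 for *Zbtb1*, 0.55 for *Sult1a1*, 0.46 for *Pld1*, 0.67 for *Il16* and 0.62 for *Snrnp48*. *Sult1a1*, a phenol sulfotransferase, averaged 41.1 ± 9.47 CPM in Ctrl CL, 21.9 ± 7.39 in cKO CL, 12.6 ± 3.61 in Ctrl IL and 5.48 ± 1.07 in cKO IL. *Il16*, which encodes a chemoattractant cytokine, averaged 204 ± 30.7, 153 ± 19.0, 106 ± 22.8 and 72.1 ± 2.78 CPM in the same order. The other members were unlike it, with r of -0.69 for *Arrdc4*, -0.38 for *Txn1* and 0.21 for *Mlxip*.

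The enzymes around thioredoxin were described with a list of 29 genes, all of which were tested. This list and those that follow were chosen with earlier results of these data known. Their counts and p-values are therefore a description and no independent support for an excess of calls in a list. In the IL hemispheres none was called between cKO and Ctrl by limma, with 2 at an unadjusted p under 0.05, and in the CL hemispheres none was, with 4. The list median log2FC of cKO against Ctrl was -0.07 in IL and -0.22 in CL, against 0.01 and -0.055 over all genes. It was negative for 18 of the 29 genes in IL and for 25 in CL. Between hemispheres of Ctrl mice 5 of 29 were called, 4 rising and 1 falling in IL, beside 6.58% of all genes. The median log2FC of the list was 0.21 against -0.04 over all genes. In cKO mice 18 of 29 were called, 16 rising and 2 falling, beside 22.4% of all genes, with a median of 0.44 against 0.02. With the mouse as a fixed block, 10 were called in Ctrl and 15 in cKO, beside 20.5% and 13.8% of all genes. In a single fit of all 14 libraries 7 and 6 were called, beside 10.9% and 7.53%. The IL level was higher than the CL level in all 6 mice for 8 of the 29 genes (27.6%) and lower in all 6 for 4 (13.8%), beside 11.5% and 23.4% of the 15863 genes tested in both genotypes.

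Of the enzymes that rose in IL of both genotypes, *Srxn1*, whose product sulfiredoxin repairs overoxidized peroxiredoxins, showed the largest difference. In Ctrl mice it went from 14.99 ± 1.78 CPM in CL to 67.8 ± 10.7 in IL (n = 4, log2FC 2.17, SE 0.17, limma adjusted p = 0.000212). In cKO it went from 15.5 ± 2.43 to 61.3 ± 15.7 CPM (n = 3, log2FC 1.97, SE 0.20, limma adjusted p = 0.00183). *Prdx6*, a peroxiredoxin, rose from 77.4 ± 20.4 to 260 ± 55.6 CPM in Ctrl (limma adjusted p = 0.0065) and from 66.2 ± 15.7 to 181 ± 35.1 CPM in cKO (limma adjusted p = 0.00257). *Txnrd1*, the cytosolic reductase that restores thioredoxin, rose from 97.0 ± 9.34 to 209 ± 18.8 CPM in Ctrl (log2FC 1.18, SE 0.17, limma adjusted p = 0.00396) and from 103 ± 6.84 to 187 ± 30.4 CPM in cKO (log2FC 0.92, SE 0.14, limma adjusted p = 0.00482). These 3 were called in every setting run in both genotypes. *Prdx1* rose as well, with a log2FC of 1.38 (SE 0.33, limma adjusted p = 0.0378) in Ctrl and 1.15 (SE 0.13, limma adjusted p = 0.00217) in cKO. Its Ctrl call held in 9 of 16 other settings.

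*Glrx*, a glutaredoxin, rose in IL of cKO (log2FC 1.32, SE 0.24, limma adjusted p = 0.00815), as did *Msrb1*, a selenoprotein that reduces methionine sulfoxide (log2FC 1.25, SE 0.30, limma adjusted p = 0.0218). Those calls held in 13 and 6 of 14 other settings, and that of *Msrb1* was lost with the mouse as a random effect. In Ctrl, *Glrx* was at 90.9 ± 36.3 CPM in CL and 170 ± 51.1 in IL, and *Msrb1* at 8.71 ± 4.13 and 22.0 ± 11.2 CPM. Neither was called in Ctrl in the unblocked fit, and both were called, higher in IL, with the mouse as a fixed block and as a random effect. No gene of the list was called by the interaction fit, which tests the difference between genotypes. *Msrb2*, a mitochondrial methionine sulfoxide reductase, fell from 59.5 ± 11.9 to 30.0 ± 4.59 CPM in Ctrl (limma adjusted p = 0.0305) and from 51.5 ± 8.28 to 27.5 ± 2.57 CPM in cKO (limma adjusted p = 0.00509), and its Ctrl call held in 9 of 16 other settings. *Sesn1*, a stress-induced sestrin, fell in cKO (log2FC -0.95, SE 0.17, limma adjusted p = 0.0082), with -0.72 (SE 0.21) in Ctrl, where limma's adjusted p was 0.0777 without a block and the call was made with either form of block. Per kilobase, *Txnip* exceeded *Txnrd1* by 31.5 ± 6.62 times in Ctrl CL (n = 4), 19.2 ± 3.28 times in cKO CL (n = 3), 5.16 ± 0.55 times in Ctrl IL (n = 4) and 3.06 ± 0.66 times in cKO IL (n = 3).

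**Figure D4:**
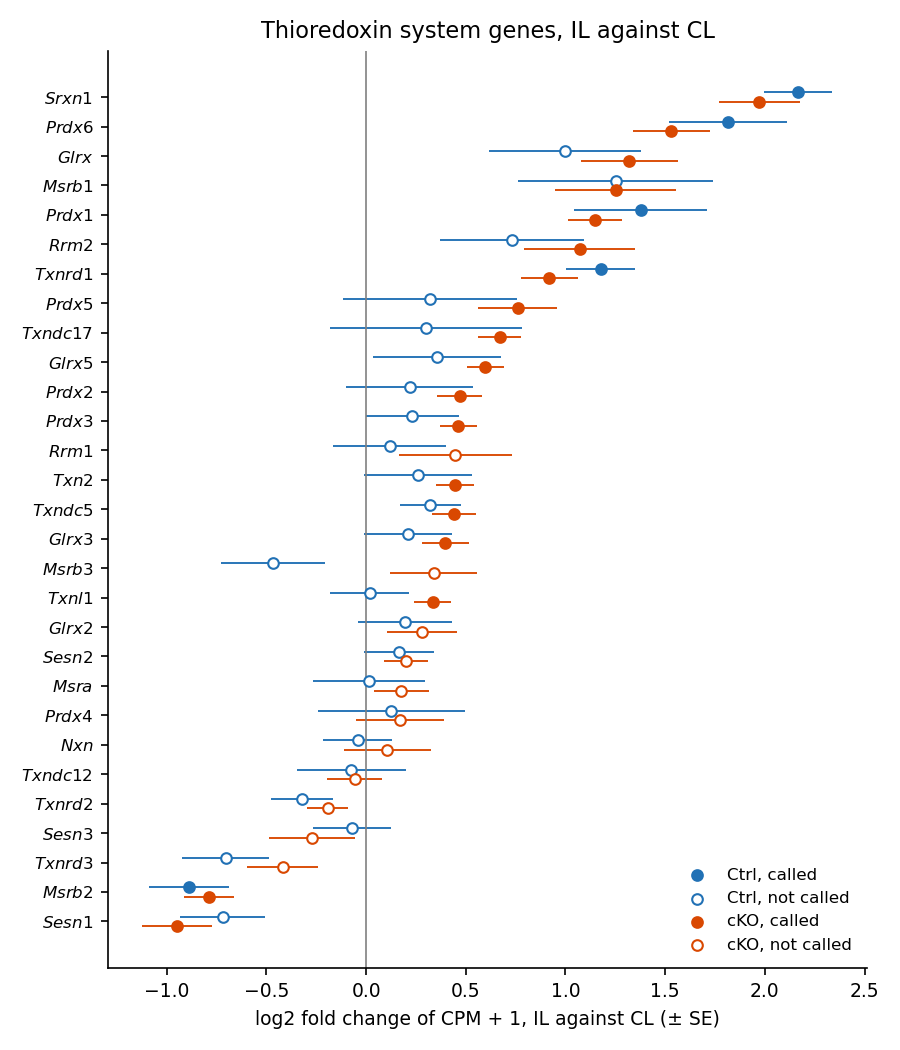
Log2 fold changes of CPM + 1 in IL against CL (horizontal axis, bars ± SE) for the 29 genes of the thioredoxin list (rows) in Ctrl (blue) and cKO (orange), filled where called. *Srxn1*, *Prdx6*, *Prdx1* and *Txnrd1* are filled to the right of 0 in both genotypes, and *Msrb2* to the left.

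Among 14 genes of the alpha-arrestins and the Mondo/Max network, 13 were tested. None was called between genotypes in IL by limma, with 3 at an unadjusted p under 0.05, and 1 was called in CL. That gene was *Max*, the common partner of the Myc and Mxd proteins, at 22.1 ± 4.19 CPM in Ctrl CL (n = 4) and 8.97 ± 2.83 in cKO CL (n = 3). It was lower in cKO with a log2FC of -1.25 (SE 0.23, limma adjusted p = 0.0344), and the call was lost without any of 6 of the 7 libraries, without a filter and on the deposited scale. Between hemispheres, 1 of 13 genes was called in Ctrl and 5 of 13 in cKO, beside 6.58% and 22.4% of all genes. With the mouse as a fixed block, 5 were called in Ctrl and 4 in cKO, beside 20.5% and 13.8%. In a single fit of all 14 libraries 1 was called in each genotype, beside 10.9% and 7.53%. The cKO count was 7 with median-ratio scaling and 8 on the deposited CPM, where 3851 and 3793 of all genes were called. *Arrdc3*, another alpha-arrestin, fell in both, from 127 ± 8.16 to 70.2 ± 4.95 CPM in Ctrl (log2FC -0.78, SE 0.16, limma adjusted p = 0.0179) and from 118 ± 13.4 to 54.2 ± 5.21 CPM in cKO (log2FC -1.03, SE 0.13, limma adjusted p = 0.0026). *Arrdc3* thus had the direction of *Txnip* in both genotypes. *Mlxipl*, which encodes the MondoA relative ChREBP, fell in cKO from 98.3 ± 7.38 to 53.6 ± 6.10 CPM (limma adjusted p = 0.00579), and *Mxd4* fell too (limma adjusted p = 0.0353). In Ctrl, *Mlxipl* averaged 66.8 ± 39.6 CPM in CL and 42.8 ± 18.3 in IL and was lower in IL in 4 of 4 mice, a difference called only with the mouse as a fixed block (limma adjusted p = 0.043). *Mlx*, the partner of MondoA, rose in cKO from 23.7 ± 2.69 to 31.5 ± 2.17 CPM (limma adjusted p = 0.0153), and so did *Mxd1* (limma adjusted p = 0.0119). Those calls held in 10 and 12 of 14 other settings. The call of *Mlx* was lost with the mouse as a fixed block, in the single fit of all 14 libraries and without the IL library of mouse 784 or 791, and that of *Mxd1* in both fits of all 14 libraries.

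The third list held 14 proteins that bind Txnip or act on it. None was called between genotypes by limma, with 1 at an unadjusted p under 0.05 in IL and 2 in CL. Between hemispheres, 1 of 14 was called in Ctrl and 3 of 13 in cKO, shares close to the 6.58% and 22.4% of all genes. *Nlrp3*, the inflammasome sensor, rose in IL from 98.9 ± 37.6 to 162 ± 33.7 CPM in Ctrl (log2FC 0.83, SE 0.22, limma adjusted p = 0.0496) and from 149 ± 18.2 to 210 ± 24.3 CPM in cKO (log2FC 0.57, SE 0.15, limma adjusted p = 0.0294). Those calls held in 5 of 16 and 8 of 14 other settings. *Ddit4*, whose product forms a complex with Txnip, rose in cKO at low levels, from 0.748 ± 0.527 to 2.66 ± 1.77 CPM (limma adjusted p = 0.0497), and was called in Ctrl only with the mouse as a random effect. *Itch*, the ubiquitin ligase that marks Txnip for degradation, fell in cKO from 120 ± 1.67 to 91.6 ± 2.63 CPM (limma adjusted p = 0.0419). The cKO calls of *Ddit4*, *Itch* and *Mxd4* held in 6, 4 and 5 of 14 other settings, and those of *Itch* and *Mxd4* were lost with either form of block. *Slc2a1*, the glucose transporter GLUT1 that Txnip draws from the surface, was picked after its values were seen and had a log2FC of 0.06 (SE 0.30) in Ctrl and 0.37 (SE 0.29) in cKO, not called in either.

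The surroundings of *Txnip* on chromosome 3 were examined for genes that differed between genotypes. Of 58 tested genes with a start within 1 Mb, 3 were called in IL. *Fcgr1*, the high-affinity IgG receptor, lies 264 kb upstream and was at 238 ± 16.1 CPM in Ctrl IL (n = 4) and 611 ± 84.9 in cKO IL (n = 3, log2FC 1.36, SE 0.19, limma adjusted p = 0.0178). *Gm42743*, a non-coding gene 288 kb upstream, was at 0.110 ± 0.0611 CPM in Ctrl IL and 2.68 ± 0.478 in cKO IL (limma adjusted p = 0.000686). *Hist2h2be*, a histone gene of a family with similar copies, lies 337 kb upstream and was lower in cKO (log2FC -1.14, SE 0.18, limma adjusted p = 0.0361). In CL, 54 were tested and *Gm42743* alone was called (limma adjusted p = 0.000676). Over the whole chromosome 3, 20 of 851 genes (2.35%) were called in IL and 23 of 833 (2.76%) in CL, beside 0.658% and 0.875% over all genes. No tested gene within 1 Mb of *Arrdc4*, *Txn1* or *Mlxip* was called in either hemisphere.

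**Figure D5:**
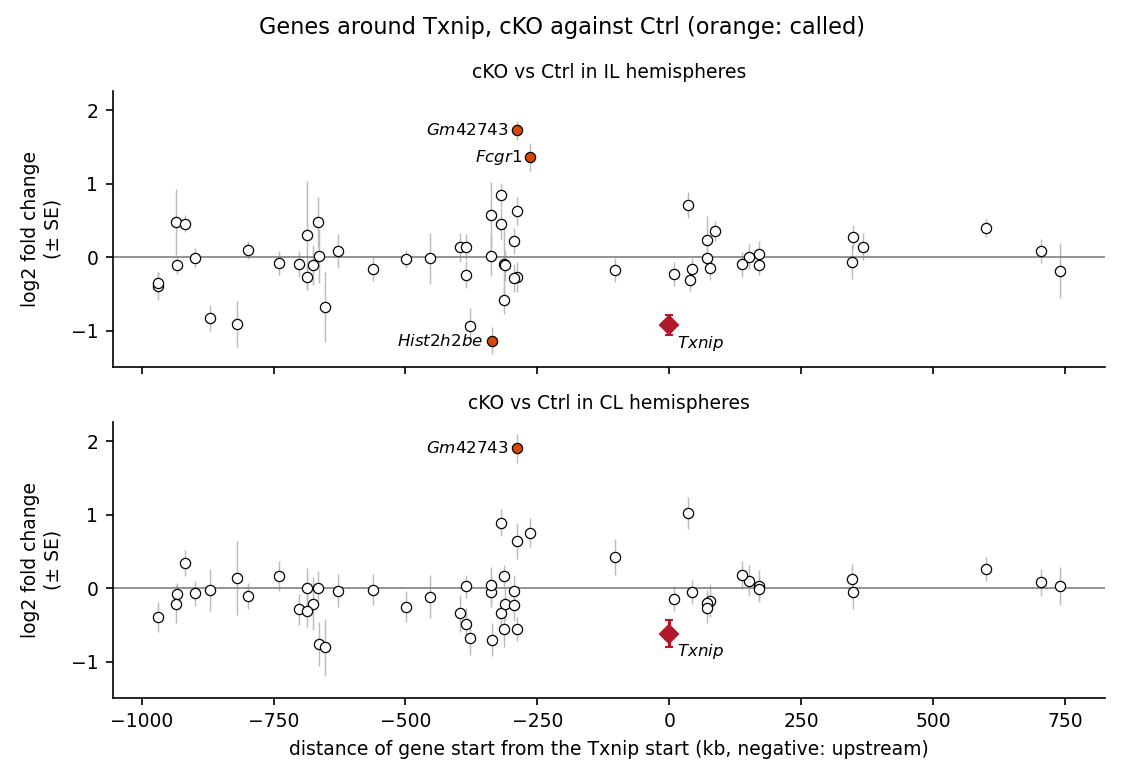
Log2 fold changes of CPM + 1 in cKO against Ctrl (vertical axes, bars ± SE) of the genes tested within 1 Mb of *Txnip*, by distance of their start from the *Txnip* start in kb (horizontal axis), in IL (top) and CL (bottom), orange where called; the diamond is *Txnip*. The called genes lie 264 to 337 kb upstream, and *Gm42743* is called in both hemispheres.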

How the data were processed

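CD11b+ cells of 14 hemispheres (4 Ctrl CL, 4 Ctrl IL, 3 cKO CL, 3 cKO IL) were sequenced from Smart Seq v4 libraries. Reads were mapped by the authors with STAR to mm10 (GRCm38) and worked in Partek Flow 8.0, and the counting step is not given in the sources used here. The table deposited by the authors as raw counts holds CPM, since each library sums to 1e+06. Of its values under 100 reads, 79.0% to 83.5% were whole multiples of a single step per library, within a tolerance of 0.03, and tests that need whole counts were not used. Deposited tables of p-values, FDR, ratios, fold changes and group means for cKO against Ctrl were not used. No column of values lacked a sample.

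Identifiers were named with GENCODE M21 (33802 of 33939). Libraries were divided by factors from the trimmed mean of M-values, unweighted, with trims of 30% and 5%, over all genes of the libraries fitted. Genes entered with the CPM of 10 reads at median depth, 0.288 to 0.353 CPM, in at least the smaller group's number of libraries and 15 reads' worth in total. limma 3.58.1 (R 4.3.3), with trend and empirical Bayes moderation, fitted log2(CPM + 1), which makes changes of genes near 1 CPM smaller. Adjustment of p-values was by Benjamini-Hochberg across all genes tested, and the fits were tested on simulated data. Tables and plots were made with Python 3.11.15, numpy 2.4.6, pandas 2.3.3 and matplotlib 3.10.9. The p-values measure the spread between mice within a group.

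The members and lists were chosen with earlier results of these data known. The genes named were the 4 members, each list gene called in a two-group comparison (the 4 highest and 4 lowest where more than 8 were called), the 5 genes most correlated with *Txnip*, and genes called between genotypes within 1 Mb of a member. *Slc2a1*, *Glrx5* and single marker genes were named after their values were seen. Marker lists were given by summed CPM. The transcript targeted by the knockout is not reported here.

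Mouse numbers pair the hemispheres of 6 mice. After group means were removed, same-mouse libraries correlated at 0.239 to 0.680 (6 pairs, median 0.520), and libraries of other mice at -0.638 to 0.588 (19 pairs, median -0.270). Deviations from a group mean cancel within the group, so the lower values for other mice follow in part from the higher same-mouse values. Fits without a block are reported, as the study states none. They treat the hemispheres of a mouse as independent, though the consensus correlation within a mouse was 0.438 in the fit of all 14 libraries. The unblocked SE and p-values between hemispheres and for the interaction therefore leave out the pairing. Alternatives were pseudocounts of 0.5 and 0.1, the deposited CPM unscaled, median-ratio scaling, no filter, all 14 libraries in a single fit, the mouse as a block and leaving out each library. Promoters came from the RefSeq table of GRCm38.p6, cut to the bases before the gene start. Matches to other transcripts, such as *Txn-ps1*, were kept at 100 bases or more and 90% identity or more. Exon bases shared with the antisense genes were counted as overlaps on the opposite strand.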

Additional observations from a re-analysis of the deposited data

Results flagged for a closer look

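Of 62 groups of 4 libraries examined, over the members and the list genes named, 2 held a library far from the other 3, where chance gives about 1 in 20. Both were the IL library of Ctrl mouse 3546, the shallowest at 12.2 M reads. There *Max* stood at 33.5 CPM, beside 11.1 to 12.2 CPM in the other Ctrl IL libraries. *Glrx5*, a mitochondrial glutaredoxin, stood at 22.4 CPM, beside 46.3 to 50.6 CPM in the others.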

How the results depend on the processing

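Among 312 values of the 4 members' differences under other settings, 311 moved by less than the spread between libraries. By that measure the exception was the *Txn1* interaction, 0.62 in the fit reported and -0.17 without the Ctrl IL library of mouse 3546. Leaving out single libraries gave it a range of -0.17 to 0.90, and the cause was not tested. For *Txn1* the spread among Ctrl IL libraries includes that of mouse 3546, so the measure is a weak one for this gene. Without that library, *Txn1* also went from 0.25 (SE 0.69) to -0.48 between genotypes in IL, with the sign turned. Between hemispheres in Ctrl it went from 0.34 (SE 0.64) to 1.07. The counts of genes called moved with the mouse term, with fitting all 14 libraries together and with the libraries included. With the mouse as a random effect (replicate block) in a fit of all 14 libraries, which changes the libraries fitted as well as the block, 190 genes were called between genotypes in IL, 290 in CL and 4258 between hemispheres in Ctrl, 3 in the interaction, and 18 (Ctrl) and 15 (cKO) pathway list genes between hemispheres, against 7 and 26 as reported. With the mouse as a fixed replicate block 3358 genes and 16 list genes were called in Ctrl and 2310 genes in cKO. Of the members between hemispheres in cKO, *Arrdc4* was called with the random effect and *Txn1* was not called in either fit of all 14 libraries, with or without the mouse term, but was with the fixed block. Against the fit reported, blocking changed no other member call. In CL, the *Txnip* genotype difference called in the single fit of all 14 libraries was lost with the mouse as a random effect.

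Without a filter, where more genes were tested, 67 (IL), 77 (CL), 535 (Ctrl) and 2436 (cKO) genes were called, with 4 and 16 list genes between hemispheres and 0 in CL between genotypes. On the deposited CPM 0 list genes were called between genotypes in CL. In a single fit of all 14 libraries, 265 genes were called in CL, 2009 between hemispheres in Ctrl and 1391 in cKO, with 7 list genes in cKO. Of the calls between hemispheres, 55.1% (Ctrl) and 57.4% (cKO) were higher in IL, and on the deposited CPM 43.4% and 43.4% were. Leaving out a library gave 46 to 284 genes in IL, 70 to 168 in CL, 485 to 1413 in Ctrl, 1882 to 3537 in cKO and 0 to 1 in the interaction, and 0 to 1 list genes in CL, 3 to 7 in Ctrl and 13 to 22 in cKO.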
